A study of Caenorhabditis elegans with 12 samples.

Results

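Spermatogenesis genes outside the families of the major sperm protein (MSP) were followed in dissected *C. elegans* germlines that lacked LIN-54, MES-4 or both. They were taken as every gene whose symbol starts with *spe-*, together with *fer-1*, *gsp-3*, *gsp-4*, *snf-10* and *trp-3*, and without any *msp*, *ssp*, *ssq* or *nsp* gene. The reference annotation holds 38 such genes. Of these, 33 have a probe set on the array that is annotated to 1 gene, among 17085 genes measured in all. The 33 genes stand on 34 probe sets, since *spe-55* has 2. The other 5 were not analysed here, and *trp-3* appears under its other name, *spe-41*. The rule uses symbols and no measured value.

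In *C. elegans* hermaphrodites the germline makes sperm in the last larval stage and then switches to oocytes, so that an adult uses sperm it stored earlier. Spermatocytes build fibrous bodies, paracrystalline bundles of MSP held in a membranous organelle, and hand them to the spermatids. A spermatid is later activated to a crawling spermatozoon, the membranous organelles fuse with its surface, and surface and secreted proteins then act at fertilization. The *spe* and *fer* genes were named for mutants that make sperm that fail at one of these steps, and most of them are thought to be transcribed before the spermatocyte divides. LIN-54 is a DNA-binding subunit of DRM, a conserved complex that controls transcription of many germline genes. MES-4 is a histone methyltransferase that marks genes expressed in the germline.

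Transcript levels were measured on 12 Affymetrix arrays, 3 biological replicates each of 4 genotypes. These were the double mutant, which carries both deletion alleles, the single mutant *lin-54(n3423)*, the single mutant *mes-4(ok2326)*, and wild type (N2). The mutant animals were homozygous offspring of heterozygous mothers (M+Z−), so that they had received maternal product. The *n3423* deletion is taken as null. The *ok2326* deletion removes much of the SET domain of MES-4 and shifts the reading frame. The study found no MES-4 protein by immunostaining in M+Z− germlines and calls this allele likely null. Germlines pooled from many adult hermaphrodites were cut out 24 hr after the L4 stage at 20°, from the mitotic tip through late pachytene, a stretch that ends before the spermatheca. In such bulk samples fewer cells of a type and less RNA per cell cannot be told apart.

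The values are normalized log2 levels, and 1 unit is a doubling. The arrays had medians of 5.81 to 5.93, and any pair of replicates had a correlation of 0.990 to 0.996 over all genes. The *lin-54* transcript was at 6.81, 6.65 and 6.33 in the double mutant and at 6.40, 7.76 and 6.32 in *lin-54*, against 10.69 to 10.88 in *mes-4* and 10.78 to 10.86 in wild type. Replicate 2 of *lin-54* was thus the highest of the 6 mutant arrays and still below every array with an intact gene. The *mes-4* transcript averaged 9.80 in the double mutant, 10.10 in *lin-54*, 9.41 in *mes-4* and 10.14 in wild type, and the study's methods describe the deleted allele as still transcribed. The median over 8 germline markers lay between 10.57 and 11.23 on every array, but single markers moved more. Among them *syp-1* averaged 11.03 in the double mutant and 11.20 in *lin-54*, against 10.12 in *mes-4* and 10.23 in wild type. In the double mutant *pgl-1* was at 11.22, 9.11 and 11.51. The number of arrays limits the precision of all values, which for these 33 genes was a median standard error of 0.10 for a log2 fold change between 2 genotypes.

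A gene was called when its Storey q over all 17085 genes, from the moderated test of limma, was at or below 0.05. Loss of LIN-54 was read in 2 sets of arrays that share none, as *lin-54* against wild type and as the double mutant against *mes-4*. Both readings use 1 estimate of the spread from all 12 arrays, so that their q-values are not independent. In *lin-54* against wild type, 5 of the 33 genes were called up (*spe-5*, *gsp-3*, *gsp-4*, *spe-18* and *spe-46*), which is 15.2% of them, where 3.12% of all genes were called up. One gene, *spe-39*, was called down, which is 3.03%, where 3.61% of all genes were called down. In the double mutant against *mes-4*, 4 were called up (*gsp-3*, *spe-5*, *gsp-4* and *spe-18*), which is 12.1%, against 2.75% of all genes, and again 1 was called down (*spe-39*), against 5.46% of all genes. The 4 genes up in the double mutant were all among the 5 up in *lin-54*. Each of these 4, and *spe-39*, stands only on a probe set of a type that can bind more than 1 transcript. Since *gsp-3* and *gsp-4* are uncertain apart from each other, they may not count as separate genes. The median log2 fold change over the 33 genes was small, 0.09 in *lin-54* against wild type and 0.10 in the double mutant against *mes-4*, where the medians over all genes were 0.05 and 0.04. None of the 33 changed by more than 1 log2 unit in either comparison.

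Separation of the arrays gave a wider set. In *lin-54* against wild type the arrays of 10 of the 33 genes lay wholly above those of wild type (30.3%, where 16.8% of all genes did) and those of 4 wholly below (12.1%, where 10.4% did). With the double mutant against *mes-4* 11 lay wholly above (33.3%, where 13% of all genes did) and 2 wholly below (6.06%, where 10.1% did). The genes *gsp-3*, *gsp-4*, *spe-5*, *spe-12*, *spe-18*, *spe-27* and *spe-55* were above in both sets of arrays, and *spe-39* was below in both. The share of all genes separated in both sets was not counted. In *spe-12* and *spe-27* the lowest double-mutant array, at 4.647 and 5.061, was barely above the highest *mes-4* array, at 4.642 and 5.06.

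**Figure D1:**
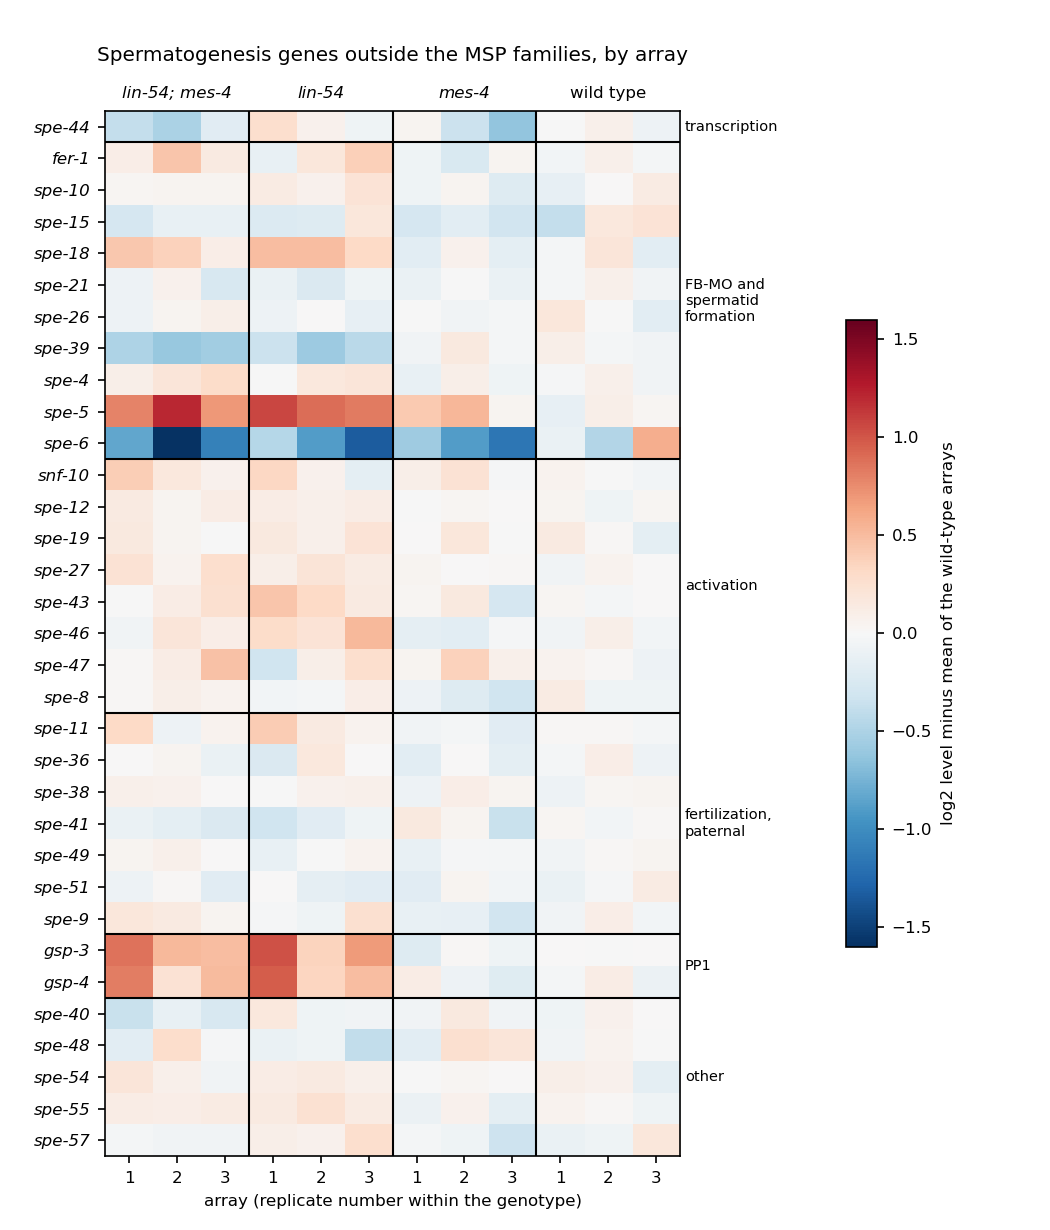
Each row is 1 of the 33 genes, grouped by role (FB-MO, fibrous body-membranous organelle), and each column 1 array, with the replicate number below. Colour gives the log2 level minus the mean of the 3 wild-type arrays of that gene. The rows of *spe-5*, *gsp-3*, *gsp-4* and *spe-18* are red in the 6 arrays without LIN-54, the row of *spe-39* is blue in the same 6 arrays, and the row of *spe-6* is blue in all mutant arrays.

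When both readings were averaged, the 6 arrays without LIN-54 against the 6 arrays with it, 10 genes were called up (30.3%, where 11.8% of all genes were) and 2 down (6.06%, where 10.6% were). Besides the 5 named above, *spe-4*, *spe-9*, *spe-27*, *spe-43* and *spe-55* were called up, and *spe-6* was called down beside *spe-39*. The added rises were small, 0.15 to 0.23 on the log2 scale. Over the 7 comparisons, which share arrays, 12 of the 33 genes were called at least once (36.4%, where 26.2% of all genes were) and 21 were never called. The log2 fold changes of those 21 lay between −0.44 and 0.32, and the widest bounds of their 95% intervals for the average effect of LIN-54 were −0.34 and 0.43. The average uses the same arrays as both readings and is no further measurement.

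Several of these calls were lost when 1 array was left out. The 5 up calls in *lin-54* became 1 without wild-type replicate 1, wild-type replicate 3 or *lin-54* replicate 3. Over all genes the 533 up calls there fell too, to 102, 137 and 108 in the same order. The 5 became 2 without *lin-54* replicate 1, where the up calls over all genes rose to 562. The 5 became 3 without wild-type replicate 2, *lin-54* replicate 2 or double-mutant replicate 3 (all genes: 189, 226 and 380). In the double mutant against *mes-4* the 4 up calls became 0 without double-mutant replicate 1, where those over all genes fell from 469 to 219. The 4 became 1 without *mes-4* replicate 1 or 3 (all genes: 255 and 324). They became 2 without double-mutant replicate 2 or wild-type replicate 1 or 3 (all genes: 438, 396 and 381). The averaged count of 10 became 6 without wild-type replicate 1, *lin-54* replicate 2 or *mes-4* replicate 1 (all genes: 1393, 1400 and 1524). It became 5 without wild-type replicate 3 or *mes-4* replicate 3 (all genes: 1171 and 1270). The averaged down call of *spe-6* was lost when double-mutant replicate 2 or 3, *mes-4* replicate 1, *lin-54* replicate 2 or 3 or wild-type replicate 1 or 3 was left out (q = 0.0534 to 0.0934), which left 1 gene down. With each array centred on its median it became 6 up and 2 down, and the calls over all genes became 917 up and 1912 down, where 2013 were up and 1817 down without centring.

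The sperm-specific phosphatases *gsp-3* and *gsp-4*, which act in chromosome handling in sperm meiosis and in motility of the spermatozoon, rose on loss of LIN-54. In *gsp-3* the log2 level was 7.05, 6.69 and 6.68 in the double mutant and 7.20, 6.54 and 6.86 in *lin-54*, against 5.97, 6.20 and 6.11 in *mes-4* and 6.18, 6.18 and 6.19 in wild type. All 6 arrays without LIN-54 were above all 6 arrays with it. The change on the log2 scale was 0.71 ± 0.15 (SE) in the double mutant against *mes-4* (1.64-fold, q = 0.0111) and 0.69 ± 0.15 in *lin-54* against wild type (1.61-fold, q = 0.0174).

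In *gsp-4* the log2 level was 6.80, 6.23 and 6.50 in the double mutant and 6.96, 6.34 and 6.48 in *lin-54*, against 6.11, 5.91 and 5.80 in *mes-4* and 5.96, 6.11 and 5.90 in wild type. Again the 6 arrays without LIN-54 did not overlap the other 6, which 2.38% of all genes showed in this direction and 4 of the 33 did (*gsp-3*, *gsp-4*, *spe-5* and *spe-55*). For *gsp-4* the log2 fold change was 0.57 ± 0.17 in the double mutant against *mes-4* (q = 0.0489) and 0.60 ± 0.17 in *lin-54* against wild type (q = 0.0439). These q-values lie close to the threshold. They were above it in 13 of 19 alternatives for the double mutant (up to 0.177, without double-mutant replicate 1) and in 10 of 19 for *lin-54* (up to 0.148, without wild-type replicate 3). For *gsp-3* the q was above it in 1 of 19 (0.0505, without double-mutant replicate 1) and in 3 of 19 (0.0584 to 0.0726, without wild-type replicate 1, wild-type replicate 3 or *lin-54* replicate 3).

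The products of *gsp-3* and *gsp-4* are nearly identical, and the 1 probe set of each is of a type that may bind related transcripts, so that the 2 genes are uncertain apart from each other. The broadly expressed relatives of the same phosphatase family were not called up. In *gsp-1* the log2 fold change was 0.28 on average over both readings (q = 0.0882, not called), and *gsp-2* fell by 0.22 (q = 0.0185).

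**Figure D2:**
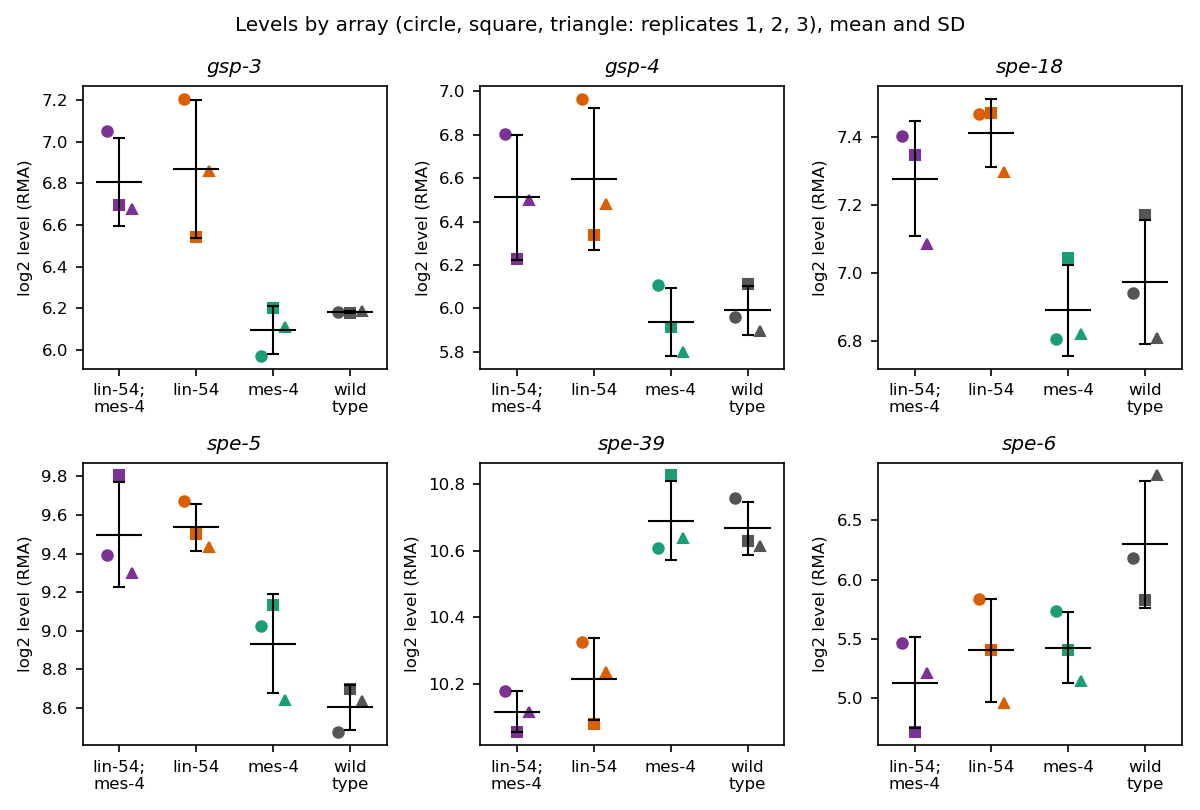
Log2 level on each array of 6 genes that were called, by genotype (double mutant, *lin-54*, *mes-4*, wild type from left to right), with replicates 1, 2 and 3 as circle, square and triangle and the mean with its SD as a cross of lines. The arrays without LIN-54 stand above the arrays with it in *gsp-3*, *gsp-4* and *spe-5* and below them in *spe-39*. In *spe-6* wild-type replicate 3, at 6.88, stands above the other 11 arrays. The level axes do not start at 0 and differ between panels.

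Among 10 genes of the fibrous body-membranous organelle and of spermatid formation, 2 were called up (20%) and 1 down (10%) in each reading of LIN-54. Of all genes, 3.12% were up and 3.61% down in *lin-54* against wild type, and 2.75% and 5.46% in the double mutant against *mes-4*. The largest rise among these 10 was that of *spe-5*, which encodes a B subunit of the vacuolar proton pump that acidifies the membranous organelle. The log2 level of *spe-5* was 9.39, 9.81 and 9.30 in the double mutant and 9.67, 9.50 and 9.44 in *lin-54*, against 9.02, 9.13 and 8.64 in *mes-4* and 8.48, 8.70 and 8.63 in wild type. The lowest of the 6 arrays without LIN-54 (9.30) was above the highest of the 6 with it (9.13). This was a log2 fold change of 0.57 ± 0.15 in the double mutant against *mes-4* (1.48-fold, q = 0.0298) and 0.93 ± 0.15 in *lin-54* against wild type (1.91-fold, q = 0.00433).

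The change of *spe-5* in *lin-54* against wild type was called in 19 of 19 alternatives. That in the double mutant against *mes-4* was lost in 5 of 19, when replicate 1 or 3 of *mes-4* or replicate 1 or 2 of the double mutant was left out, and with only those 2 genotypes in the fit (q = 0.0525 to 0.104). The other B subunit gene of the pump, *vha-12*, which is X-linked and was looked up after its values were seen, had changes of the opposite sign. It fell by 1.13 in the double mutant against *mes-4* (q = 0.0149), differed by −0.57 in *lin-54* against wild type (q = 0.131, not called), and it was 1.05 higher in *mes-4* than in wild type (q = 0.0264).

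The gene *spe-18*, needed to assemble MSP into fibrous bodies, rose as well. On the 12 arrays it was at a log2 level of 7.40, 7.35 and 7.09 in the double mutant and 7.47, 7.47 and 7.30 in *lin-54*, against 6.81, 7.05 and 6.82 in *mes-4* and 6.94, 7.17 and 6.81 in wild type. Each mutant stood clear of its own comparison group, but double-mutant replicate 3 (7.09) was below wild-type replicate 2 (7.17). The log2 fold change was 0.39 ± 0.12 in the double mutant against *mes-4* (q = 0.0495) and 0.44 ± 0.12 in *lin-54* against wild type (q = 0.0358). The q was above 0.05 in 13 of 19 alternatives for the double mutant (up to 0.168, without double-mutant replicate 1) and in 6 of 19 for *lin-54* (up to 0.141, without wild-type replicate 3), each time with the same direction. Without *lin-54* replicate 2, the array with the higher *lin-54* transcript, it was 0.0657 and 0.102.

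The one gene that fell in both readings was *spe-39*. Its product works with the VPS33 and HOPS machinery of vesicle traffic to lysosomes, is needed to form membranous organelles in sperm, and is also used in other tissues. Log2 levels of *spe-39* were 10.18, 10.06 and 10.12 in the double mutant and 10.33, 10.08 and 10.24 in *lin-54*, against 10.61, 10.83 and 10.64 in *mes-4* and 10.76, 10.63 and 10.61 in wild type. The 6 arrays without LIN-54 were all below the 6 with it, as in 2.77% of all genes. On the log2 scale the change was −0.57 ± 0.09 in the double mutant against *mes-4* (0.672-fold, q = 0.00218) and −0.45 ± 0.09 in *lin-54* against wild type (0.731-fold, q = 0.0109). The call held in 19 of 19 alternatives for the double mutant and in 18 of 19 for *lin-54*, the exception being the fit without wild-type replicate 1 (q = 0.0566).

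The casein kinase 1 family member *spe-6*, which acts in fibrous body assembly and holds back early activation, had a wide spread. Its log2 levels were 5.47, 4.71 and 5.21 in the double mutant, 5.84, 5.41 and 4.96 in *lin-54*, and 5.73, 5.41 and 5.14 in *mes-4*, against 6.19, 5.83 and 6.88 in wild type. The genotypes other than wild type overlapped one another, and wild type held the 2 highest arrays. The gene was called down in the double mutant against wild type (−1.17 ± 0.29, 0.445-fold, q = 0.0371) and over the averaged arrays without LIN-54 (−0.60 ± 0.21, q = 0.0361). In *lin-54* against wild type it was −0.89 ± 0.29 (q = 0.0657), and in *mes-4* against wild type −0.87 ± 0.29 (q = 0.107), neither of them called. The call in the double mutant against wild type was lost in 7 of 19 alternatives, among them those without wild-type replicate 1 or 3, double-mutant replicate 2 or 3, *lin-54* replicate 2 or *mes-4* replicate 2 (q = 0.0530 to 0.149). In *lin-54* against wild type *spe-6* was called as well with array weights (q = 0.0237), without *lin-54* replicate 1 (q = 0.0381) and with a replicate block (q = 0.0478).

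The presenilin-like *spe-4*, a membrane protein of the fibrous body-membranous organelle, was called up only over the averaged arrays. It was at 5.36, 5.46 and 5.56 in the double mutant and 5.27, 5.45 and 5.47 in *lin-54*, against 5.16, 5.37 and 5.21 in *mes-4* and 5.25, 5.35 and 5.22 in wild type. The groups overlapped, and the averaged log2 fold change was 0.17 ± 0.06 (q = 0.0437), which passed the threshold in 7 of 18 alternatives. The ferlin *fer-1*, needed for fusion of the membranous organelles with the plasma membrane, missed it with 0.23 ± 0.09 (q = 0.0568). The other 4 were not called in any comparison. Over the averaged arrays the palmitoyltransferase *spe-10* was at 0.13, the myosin VI *spe-15* at 0.00, *spe-21* at −0.07 and the kelch-like *spe-26* at −0.01, with 95% intervals that all held 0.

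**Figure D3:**
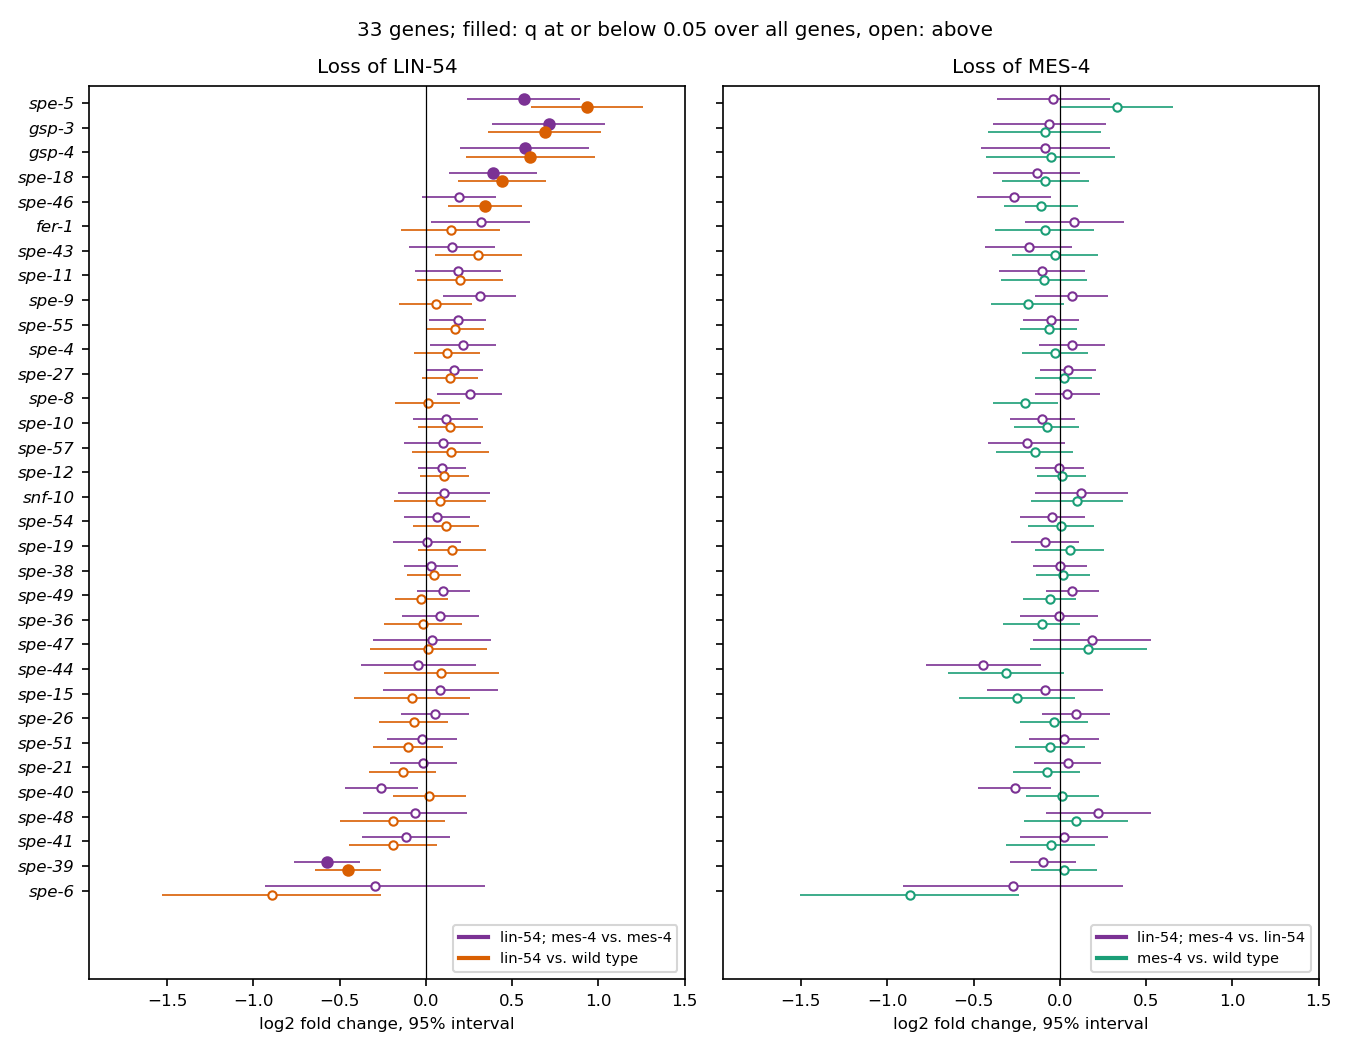
Log2 fold change with its 95% interval for each of the 33 genes, on the left for loss of LIN-54 (the double mutant against *mes-4*, and *lin-54* against wild type) and on the right for loss of MES-4 (the double mutant against *lin-54*, and *mes-4* against wild type). Filled points have a q at or below 0.05. Filled points occur only on the left, in *spe-5*, *gsp-3*, *gsp-4*, *spe-18* and *spe-39* for both comparisons and in *spe-46* for *lin-54* against wild type.

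Of 8 genes of spermatid activation, 1 was called up in *lin-54* against wild type (12.5%, where 3.12% of all genes were). In the double mutant against *mes-4* 0 were called up, where 2.75% of all genes were. The log2 fold change of all 8 was above 0 in each, as was that of 62.4% of all genes in *lin-54* against wild type and 61.5% in the double mutant against *mes-4*. At an unadjusted p under 0.05 in limma, 2 of 8 were up and 0 down in the double mutant, where 8.88% of all genes were up and 10.3% down. The called gene was *spe-46*, a membrane protein gene of the activation step. Its log2 level was 5.89, 6.14 and 6.05 in the double mutant and 6.24, 6.16 and 6.47 in *lin-54*, against 5.81, 5.77 and 5.93 in *mes-4* and 5.90, 6.04 and 5.90 in wild type. The *lin-54* arrays stood above the wild-type arrays, while the double-mutant arrays overlapped those of *mes-4*. It differed by 0.19 ± 0.10 on the log2 scale in the double mutant against *mes-4* (q = 0.215) and 0.34 ± 0.10 in *lin-54* against wild type (q = 0.0446, above the threshold in 13 of 20 alternatives). Its difference from one reading to the other was −0.15 ± 0.14 and was not called.

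Over the averaged arrays *spe-46* (0.27 ± 0.07, q = 0.0114), *spe-43* (0.23 ± 0.08, q = 0.0402) and *spe-27* (0.15 ± 0.05, q = 0.0367) were called up. Both *spe-43* and *spe-27* act in the activation pathway of *spe-8*. In *spe-43* the log2 level was 6.87, 6.99 and 7.12 in the double mutant and 7.31, 7.20 and 7.02 in *lin-54*, against 6.90, 7.03 and 6.60 in *mes-4* and 6.90, 6.84 and 6.87 in wild type. In *spe-27* it was 5.25, 5.06 and 5.28 in the double mutant and 5.10, 5.21 and 5.14 in *lin-54*, against 5.06, 5.01 and 5.02 in *mes-4* and 4.96, 5.06 and 5.01 in wild type. In both genes the arrays without LIN-54 overlapped those with it, and the averaged call held in 8 of 19 and 8 of 18 alternatives.

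The tyrosine kinase *spe-8*, for which that pathway is named, was at 5.34, 5.42 and 5.39 in the double mutant and 5.29, 5.29 and 5.44 in *lin-54*, against 5.25, 5.12 and 5.01 in *mes-4* and 5.46, 5.26 and 5.27 in wild type. Its *mes-4* arrays were below the arrays of every other genotype, and it differed by 0.25 ± 0.09 on the log2 scale in the double mutant against *mes-4* (q = 0.0763) and 0.01 ± 0.09 in *lin-54* against wild type (q = 0.557). No comparison called it. The membrane proteins *spe-12* and *spe-19*, the MSP-domain protein *spe-47* and the transporter *snf-10*, which passes on an activation signal from the male, lay between 0.02 and 0.10 over the averaged arrays and were not called.

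Among 7 genes of fertilization and of the paternal contribution, 0 were called in *lin-54* against wild type and 0 in the double mutant against *mes-4*. Of all genes, 3.12% were called up and 3.61% down in the first comparison, and 2.75% and 5.46% in the second. At an unadjusted p under 0.05 in limma, 0 of them were up and 0 down in *lin-54*, where 11.7% of all genes were up and 8.72% down, and 1 was up and 0 down in the double mutant, where 8.88% were up and 10.3% down. The gene with that p, *spe-9*, encodes a surface protein with EGF repeats that sperm need at the oocyte. Its log2 level was 6.67, 6.63 and 6.53 in the double mutant and 6.46, 6.42 and 6.74 in *lin-54*, against 6.36, 6.35 and 6.18 in *mes-4* and 6.43, 6.58 and 6.44 in wild type. The double-mutant arrays stood above the *mes-4* arrays (0.31 ± 0.10, q = 0.0566), while *lin-54* overlapped wild type (0.06 ± 0.10, q = 0.454). The averaged change of 0.18 ± 0.07 was called (q = 0.0452), in 6 of 18 alternatives.

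The paternal factor *spe-11*, which sperm bring to the embryo, was at 4.32, 3.91 and 4.05 in the double mutant and 4.40, 4.13 and 4.04 in *lin-54*, against 3.93, 3.97 and 3.81 in *mes-4* and 4.01, 4.01 and 3.96 in wild type. Replicate 1 was the highest array in both genotypes without LIN-54, and the averaged log2 fold change was 0.19 ± 0.08 (q = 0.0626). The tetraspan protein gene *spe-38*, the TRPC channel gene *spe-41*, the genes of the secreted proteins *spe-36* and *spe-51*, and *spe-49* lay between −0.15 and 0.04 over the averaged arrays, with 95% intervals that all held 0.

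The transcription factor *spe-44*, a SAND-domain protein that drives many genes of the spermatocyte program, was not called on loss of LIN-54. It stood at 8.40, 8.28 and 8.60 in the double mutant and 9.05, 8.86 and 8.71 in *lin-54*, against 8.83, 8.43 and 8.15 in *mes-4* and 8.78, 8.86 and 8.71 in wild type. Its log2 fold change was −0.04 (95% interval −0.38 to 0.29) in the double mutant against *mes-4* and 0.09 (−0.24 to 0.42) in *lin-54* against wild type, so that a rise of the size seen in *gsp-3* or *spe-5* lies outside both intervals. Of the 5 remaining genes, for which no role is given here, *spe-55* was called up over the averaged arrays (0.18 ± 0.05, q = 0.0211). This gene was at 6.15, 6.14 and 6.16 in the double mutant and 6.17, 6.27 and 6.16 in *lin-54*, against 5.93, 6.10 and 5.87 in *mes-4* and 6.08, 6.05 and 5.96 in wild type. The 2 probe sets of *spe-55* differed between arrays without and with LIN-54 by 0.23 and 0.13 in the same direction.

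The gene *spe-40* was at 5.86, 6.10 and 5.96 in the double mutant, 6.39, 6.15 and 6.17 in *lin-54*, 6.15, 6.38 and 6.16 in *mes-4* and 6.14, 6.28 and 6.23 in wild type. The double-mutant arrays were below those of each other genotype, and none of the comparisons called it (−0.26 ± 0.10 against *mes-4*, q = 0.104, and −0.26 ± 0.10 against *lin-54*, q = 0.166). The genes *spe-48*, *spe-54* and *spe-57* lay between −0.13 and 0.12 over the averaged arrays and were not called.

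Loss of MES-4 was read as the double mutant against *lin-54* and as *mes-4* against wild type. In neither comparison was any of the 33 genes called in either direction, where 1.78% of all genes were called up and 1.22% down in the double mutant against *lin-54*, and 3.86% up and 2.11% down in *mes-4* against wild type. At an unadjusted p under 0.05 in limma, 0 genes were up and 3 down in the double mutant (*spe-40*, *spe-44* and *spe-46*), and 1 was up (*spe-5*, 0.33 ± 0.15, q = 0.252) and 2 were down (*spe-6* and *spe-8*) in *mes-4*. Of all genes, 5.29% were up and 9.24% down at that p in the double mutant against *lin-54*, and 7.95% up and 7.57% down in *mes-4* against wild type, so that the 3 of 33 down in the double mutant (9.09%) were close to the share of all genes. The median log2 fold change over the 33 genes was −0.04 in the double mutant against *lin-54* and −0.06 in *mes-4* against wild type, against −0.05 and −0.04 over all genes. When *mes-4* replicate 1 was left out, *spe-44* was called down in *mes-4* against wild type (−0.49, q = 0.0462), and no alternative called any member in the double mutant against *lin-54*.

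Of the 33 genes, 0 had *mes-4* arrays wholly above wild type and 3 wholly below (*spe-6*, *spe-8* and *spe-9*), where 8.8% and 11.5% of all genes did. In the double mutant against *lin-54*, 0 were wholly above and 6 wholly below (*spe-10*, *spe-40*, *spe-44*, *spe-46*, *spe-55* and *spe-57*), where 6.32% and 13.9% of all genes were. For *spe-44* the log2 fold change was −0.44 ± 0.15 in the double mutant against *lin-54* (q = 0.144) and −0.31 ± 0.15 in *mes-4* against wild type (q = 0.298).

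Whether the effect of LIN-54 differed with and without MES-4 was tested as an interaction. None of the 33 genes was called, where 0.0351% of all genes were called with a positive and 0.0293% with a negative interaction, and none of the 33 had an unadjusted p under 0.05, where 1.73% and 2.94% of all genes had one. It was −0.37 ± 0.21 for *spe-5*, 0.03 ± 0.21 for *gsp-3* (95% interval −0.44 to 0.49) and 0.60 ± 0.41 for *spe-6*. These intervals are wide beside the changes themselves, so that a p that misses the threshold does not show equal effects. The double mutant differed from wild type in 4 genes, *gsp-3* (0.63) and *spe-5* (0.90) up and *spe-39* (−0.55) and *spe-6* (−1.17) down, where 2.18% of all genes were up and 2.94% down. Its arrays lay wholly above those of wild type in 7 of the 33 genes (21.2%, where 10.3% of all genes did) and wholly below in 5 (15.2%, where 11.2% did). Of these 4 calls those of *spe-5* and *spe-39* held in 19 of 19 alternatives, and that of *gsp-3* was lost without any 1 of the 6 arrays compared (q = 0.0510 to 0.103).

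The rest of the sperm pathway, taken from lists of genes that are not among the 33, gave the following values. All 23 measured MSP genes, the cytoskeletal and signal protein that makes up much of a spermatozoon, were called up over the averaged arrays, with a median log2 fold change of 2.92 in the double mutant against *mes-4* (21 of 23 called) and 2.34 in *lin-54* against wild type (15 of 23 called). Among 9 other sperm protein genes 6 were called up over the averaged arrays (66.7%, where 11.8% of all genes were), with a median of 0.24 over the 9. The 6 were *smz-1*, *smz-2*, *comp-1*, *gipc-1*, *gipc-2* and *swm-1*. Of the 9, 7 were above 0, where 64.8% of all genes were. Below 0 were *zipt-7.1* and *wee-1.3*, and the lowest change was −0.15. Among 8 genes of sperm chromatin and of the sperm fate 5 were called up (62.5%, where 11.8% of all genes were). All 8 were above 0, with a median of 0.21. Called were among others the sperm chromatin genes *spch-1* (0.48) and *htas-1* (0.25) and *fog-3* (1.08), which commits germ cells to the sperm fate. The fate genes *fog-1* and *elt-1* were at 0.10 and 0.06 and were not called. The median over the 33 genes was 0.09 and that over all genes 0.05. The difference between these lists was not tested.

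**Figure D4:**
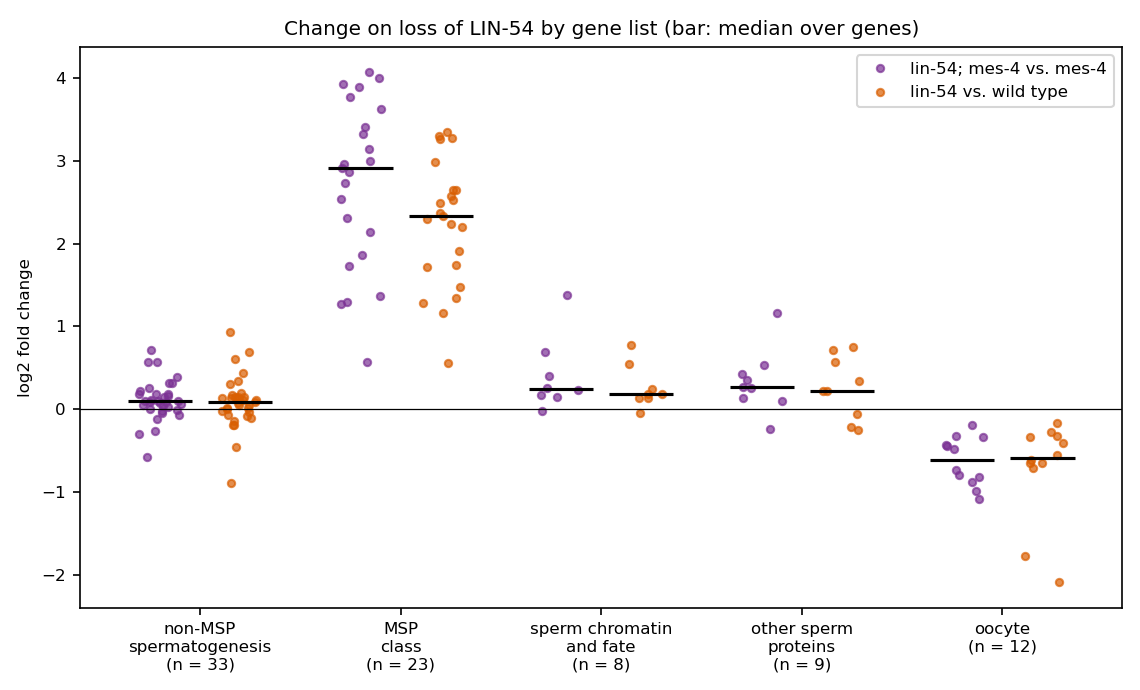
Log2 fold change on loss of LIN-54 of every measured gene in 5 lists, for the double mutant against *mes-4* (left column of each pair) and *lin-54* against wild type (right column), with a bar at the median over genes. The 33 spermatogenesis genes outside the MSP families lie around 0.10 and 0.09, the 23 MSP genes around 2.92 and 2.34, and the 12 oocyte genes around −0.61 and −0.58.

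The MSP transcripts varied strongly between replicates, and that variation was set beside the 33 genes. The median MSP log2 level was 10.15, 7.70 and 9.52 in the double mutant and 10.12, 7.13 and 8.82 in *lin-54*, against 6.28 to 6.65 in *mes-4* and 6.35 to 6.52 in wild type. All 23 MSP genes had this order of replicates, 1 above 3 above 2, in both genotypes without LIN-54. Of the 33 genes, 5 had that order in the double mutant and 4 in *lin-54*, and 2 had it in both (*gsp-4* and *spe-39*), that is 15.2%, 12.1% and 6.06%, where 17.9%, 16.2% and 4.92% of all genes did. The gene *gsp-3* had the order in *lin-54*. In the double mutant its replicate 1 was the highest too, at 7.05, but replicate 2 (6.694) was just above replicate 3 (6.675). In *spe-39* this order put the smallest fall in the arrays with the most MSP transcript. The shares of the 33 genes are close to those of all genes, so that these matches do not set the 33 apart. The part of MSP-rich cells in the changes of *gsp-3*, *gsp-4* and *spe-39* was not tested.

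Markers of other cells moved with the loss of LIN-54 too. Over the averaged arrays 11 of 12 oocyte genes were called down (91.7%, where 10.6% of all genes were), the exception being *oma-1*. The median level of the list ranged from 11.75 to 11.93 in the double mutant and from 11.64 to 11.83 in *lin-54*, against 12.23 to 12.42 in *mes-4* and 12.12 to 12.40 in wild type. Of 10 measured genes of the somatic gonad, sheath and spermatheca, *inx-8* (−2.01) and *tbh-1* (−2.99) were called down and *mig-6* (0.37) up, and the list's median level ranged from 6.74 to 6.85 in the double mutant, 6.32 to 6.63 in *lin-54*, 6.61 to 6.73 in *mes-4* and 6.74 to 6.81 in wild type. Muscle genes were all above 0 over the averaged arrays (5 of 5, median 0.25), where 64.8% of all genes were, and *myo-1* was called up (0.25, q = 0.00419). The median level of the muscle list ranged from 6.04 to 6.33 in the double mutant and 6.16 to 6.25 in *lin-54*, against 5.83 to 6.07 in *mes-4* and 5.79 to 6.13 in wild type. Of 4 neuronal genes *rab-3* was called up (0.20, q = 0.0108), with a median of 0.05 over the 4. These calls are 20% of the muscle and 25% of the neuronal genes, where 11.8% of all genes were called up. None of 5 intestinal genes was called by limma. At an unadjusted p under 0.05 in limma 1 of 5 was up and 0 down, where 17% of all genes were up and 12.5% down. The median level of the intestinal list varied widely within genotypes. It ranged from 6.62 to 7.49 in the double mutant, 6.32 to 9.33 in *lin-54*, 6.96 to 10.68 in *mes-4* and 7.40 to 8.99 in wild type. In the list of 8 germline genes *syp-1* was called up over the averaged arrays (0.94, q = 6.48e-05) and 0 were called down, with a median of −0.04 over the 8. The part of any of these cell types in the changes of the 33 genes was not tested.

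By position, 15 of the 33 genes (45.5%) lie on chromosome I, which holds 14.5% of all genes measured, 8 on IV, 5 on V, 3 on III and 2 on II. None of the 33, nor of the 38 in the annotation, is X-linked, where 13.8% of the genes measured are. Of the 10 genes called up over the averaged arrays, *gsp-3*, *gsp-4*, *spe-4*, *spe-5*, *spe-9* and *spe-46* lie on chromosome I, *spe-27*, *spe-43* and *spe-55* on IV and *spe-18* on II, and the fallen *spe-39* and *spe-6* lie on V and III. By level, 17 of the 33 genes were at or above the median over all genes and 16 below it, and no detection call was used, so that low levels may hold little beyond background signal. For 10 of the 33, among them *gsp-3*, *gsp-4*, *spe-5*, *spe-18* and *spe-39*, the only probe sets are of a type that can bind more than 1 transcript, so that these genes have no value when such probe sets are left out.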

How the data were processed

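Per the labels and the study's methods, the authors normalized the Affymetrix intensities by quantile normalization and robust multichip averaging (affy) and deposited log2 levels of probe sets. These deposited log2 values, 3.05 to 14.6, were not normalized again. The array carries 22548 probe sets besides 77 controls. Those were used for which the platform annotation named 1 gene (20766, of which 20701 matched the reference annotation and 65 did not), and those naming several genes (887) or none (895) were left out. Each gene took the mean of its probe sets, for 17085 genes.

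limma 3.58.1 in R 4.3.3 modelled all genes on the 12 arrays together, each genotype having its own mean. Storey q-values were computed per comparison (lambda 0 to 0.9 in steps of 0.05, smoothing spline with 3 degrees of freedom) and called at 0.05. Intervals are 95%. The fit was tested on simulated data. The members, the gene lists and the tests were chosen with earlier results of these data known. Genes with values for every array are those called, at most the 12 with the smallest p, and the pair with the smallest p of each role. Alternatives were another probe set rule, the Benjamini-Hochberg adjustment, no shared probe sets, only the genotypes compared, centred arrays, a filter on low levels, array weights, a replicate block and leaving out each array. The replicates are labelled biological, without the cultures they came from.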

Additional observations from a re-analysis of the deposited data

How the results depend on the processing

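Over 27 log2 fold changes of named genes and 504 alternative values, 371 were still called, 133 were not and 0 turned direction. The threshold decides counts of 10 or fewer genes, so that they move readily. In *lin-54* against wild type the 5 genes up became 3 with the most significant probe set and 2 by Benjamini-Hochberg. They became 3 on centred arrays and 0 once shared probe sets were dropped. The 533 up calls over all genes became 441, 219, 179 and, of 13593 genes, 301 in the same order. The 1 down became 0 without shared probe sets and 2 with array weights, and the 617 down over all genes became 359 and 1267. Centring gave 179 up and 662 down over all genes there, where 533 and 617 were called without it. In the double mutant against *lin-54* it gave 311 up and 117 down, where 304 and 209 were called without it. In the double mutant against *mes-4* the 4 up became 2 with the most significant probe set and 2 with Benjamini-Hochberg. They became 0 without shared probe sets and 1 with only those genotypes. All-gene up calls went from 469 to 411, 320, 282 and 198 in the same order. The 1 down became 0 without shared probe sets, where the 932 down over all genes became 556. Over the averaged arrays the 10 up became 6 with Benjamini-Hochberg, 3 without shared probe sets and 6 with centred arrays. For all genes 2013 up became 1109, 1368 and 917. The 2 down became 1 with Benjamini-Hochberg, 1 without shared probe sets and 1 without genes below the median level. For all genes 1817 down became 1360, 1130 and, of 8543 genes, 1763. In the double mutant against wild type the 2 up became 0 without shared probe sets, where 373 up over all genes became 222. The 2 down became 1 in each of 3 settings, without shared probe sets, with only those genotypes and without genes below the median level. There the 502 down over all genes became 290, 475 and 619. Leaving out shared probe sets removes the members concerned, and the filter on low levels removes *spe-6*. Without shared probe sets *spe-46* and *spe-4* kept their values. Even so, *spe-46* lost its call in *lin-54* against wild type and *spe-4* its call over the averaged arrays. The cause of these losses and of the other shifts was not tested.

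Leaving out each array in turn gave 1 to 5 up and 0 to 2 down in *lin-54* against wild type (all genes: 102 to 597 and 171 to 777). The double mutant against *mes-4* gave 0 to 3 up and 1 down (all genes: 203 to 554 and 473 to 1050). The averaged arrays gave 5 to 11 up and 1 to 3 down (all genes: 1171 to 2436 and 1366 to 1928). In *mes-4* against wild type 0 were up and 0 to 1 down (all genes: 308 to 744 and 143 to 419). In the double mutant against wild type 1 to 3 were up and 1 to 2 down (all genes: 197 to 420 and 224 to 600). The genes *gsp-3*, *gsp-4*, *spe-5*, *spe-18*, *spe-39* and *spe-46* stayed called over the averaged arrays in every alternative that could give them a value.

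Deviations of same-numbered arrays correlated at −0.05 to 0.44, with 9 of 18 pairs over 0.1. In 25 of 36 combinations of an array with another genotype the same number gave the highest correlation, and 4 of 12 arrays correlated best with their own number in every other genotype. The sources do not say that a number marks a shared batch, so that pairing was not established, and some sharing between same-numbered arrays may exist. With the replicate number as a block, 2 genes were down in *lin-54* against wild type, where 1 was without it, *spe-6* being added. Down calls over all genes there were 785 with the block and 617 without it. Over the averaged arrays *fer-1* (q = 0.0495) and *spe-11* (q = 0.0357) were then called up and *spe-9* was not (q = 0.0545), and in the double mutant against wild type *gsp-4* was called up (q = 0.0447). No other member's call changed with the block.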
